A study of Mus musculus with 4 samples.

Results

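The genes described here are 9 in number. Sfrp1, Sfrp2, Sfrp4, Sfrp5, Frzb, Dkk2, Dkk3 and Rspo3 encode secreted modulators of Wnt signalling, while Tcf4 encodes a DNA-binding factor that is not secreted. They were taken by name from the gene lists of the count matrices and are 9 of the 30406 genes listed for every library. Their levels were compared between stromal cells of 2 types and between mice with and without a TNF transgene. Macrophages from the same libraries served as background.

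The 4 libraries were made by droplet single-cell RNA sequencing of popliteal lymphatic vessels and adjacent superficial saphenous veins of the mouse leg, each from 3 pooled mice. The tdT1 and tdT2 libraries are replicates of cells sorted for the tdT reporter from Cspg4-Cre;tdTomato mice over 8 months old, in which cells with a history of Cspg4 promoter activity carry the reporter. The WT library came from male C57BL6 mice and the TNF-Tg library from male TNF-Tg mice, which carry a human TNF transgene and develop arthritis. The labels give 9 months for both, and their cells were sorted by light scatter and not by a reporter. The study's methods state a C57BL/6J background for every mouse used, and a separate day for each sequencing experiment. WT and TNF-Tg are 1 library each, and the state of the mice cannot be told apart from the library or its day.

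Wnt proteins are secreted signals that bind Frizzled receptors with the co-receptors Lrp5 or Lrp6, after which beta-catenin enters the nucleus and acts with TCF/LEF factors. Secreted Frizzled-related proteins (the Sfrp family and Frzb) hold a Frizzled-like domain and bind Wnt outside the cell. Dickkopf proteins such as Dkk2 bind Lrp5 and Lrp6, while Dkk3 is a divergent member of that family. R-spondins such as Rspo3 bind Lgr receptors and strengthen Wnt signalling. Tcf4 here is the E-protein E2-2, a helix-loop-helix factor that binds E-boxes, and not the beta-catenin partner that shares this nickname and has the symbol Tcf7l2.

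Cells were placed in classes by panels of other genes, none of which is a member or on the Wnt pathway list read further below. A panel score is the mean over 6 genes of the natural log of 1 plus UMIs per 10000, where a UMI is a counted mRNA molecule. Stromal cells scored at least 1 higher for collagen-type genes than for leukocyte genes. They were called LMC-type where the score of Myoc, Pi16, Fndc1, Dpp4, Anxa3 and Efemp1 exceeded that of Cxcl14, Mgp, Gdf10, Fmo2, Bgn and Rbp4 by at least 0.5, VSMC-type where it was lower by that much, and intermediate otherwise. LMC and VSMC stand for lymphatic muscle cell and vascular smooth muscle cell, the names the study gives to clusters with these markers. A class is a range of a score and not a cell type. The LMC-type held 769, 103, 1526 and 552 cells in tdT1, tdT2, WT and TNF-Tg, the VSMC-type 148, 92, 490 and 393, and the macrophages 15, 55, 1714 and 439.

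The contractile genes that define mature smooth muscle were nearly absent from both types. The summed level of Acta2, Myh11, Tagln, Cnn1, Des and Lmod1 lay between 2.86 and 39.0 UMIs per 1000000 (CPM) in the 8 sums of LMC-type and VSMC-type cells, and in the LMC-type of each library Des, also a gene of other muscle, gave most of it. Both types are therefore called stroma here. Libraries held 2357031 (tdT2) to 68773605 (WT) UMIs, with medians of 4932.5 to 12660 UMIs per cell. The tdT1 library stood apart in quality, with 516 of 1504 cells over 10% mitochondrial UMIs against 1, 252 and 65 cells in tdT2, WT and TNF-Tg, and it was counted with an older Cell Ranger. Any pair of libraries shared 0 to 5 cell barcodes.

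Of the 9 genes, 7 were measured in stroma and 2 were at or near 0. Sfrp4 ranged from 255 to 747 CPM over the 8 sums of both types, Tcf4 from 93.9 to 434, Sfrp2 from 10.2 to 537 and Sfrp1 from 38.8 to 155. Dkk2, Dkk3 and Rspo3 reached their highest levels in 1 type. A CPM value counts the UMIs of a gene in the summed cells of a class per 1000000 UMIs of those cells. The 3′ counting makes levels of different genes comparable without division by length.

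**Figure D1:**
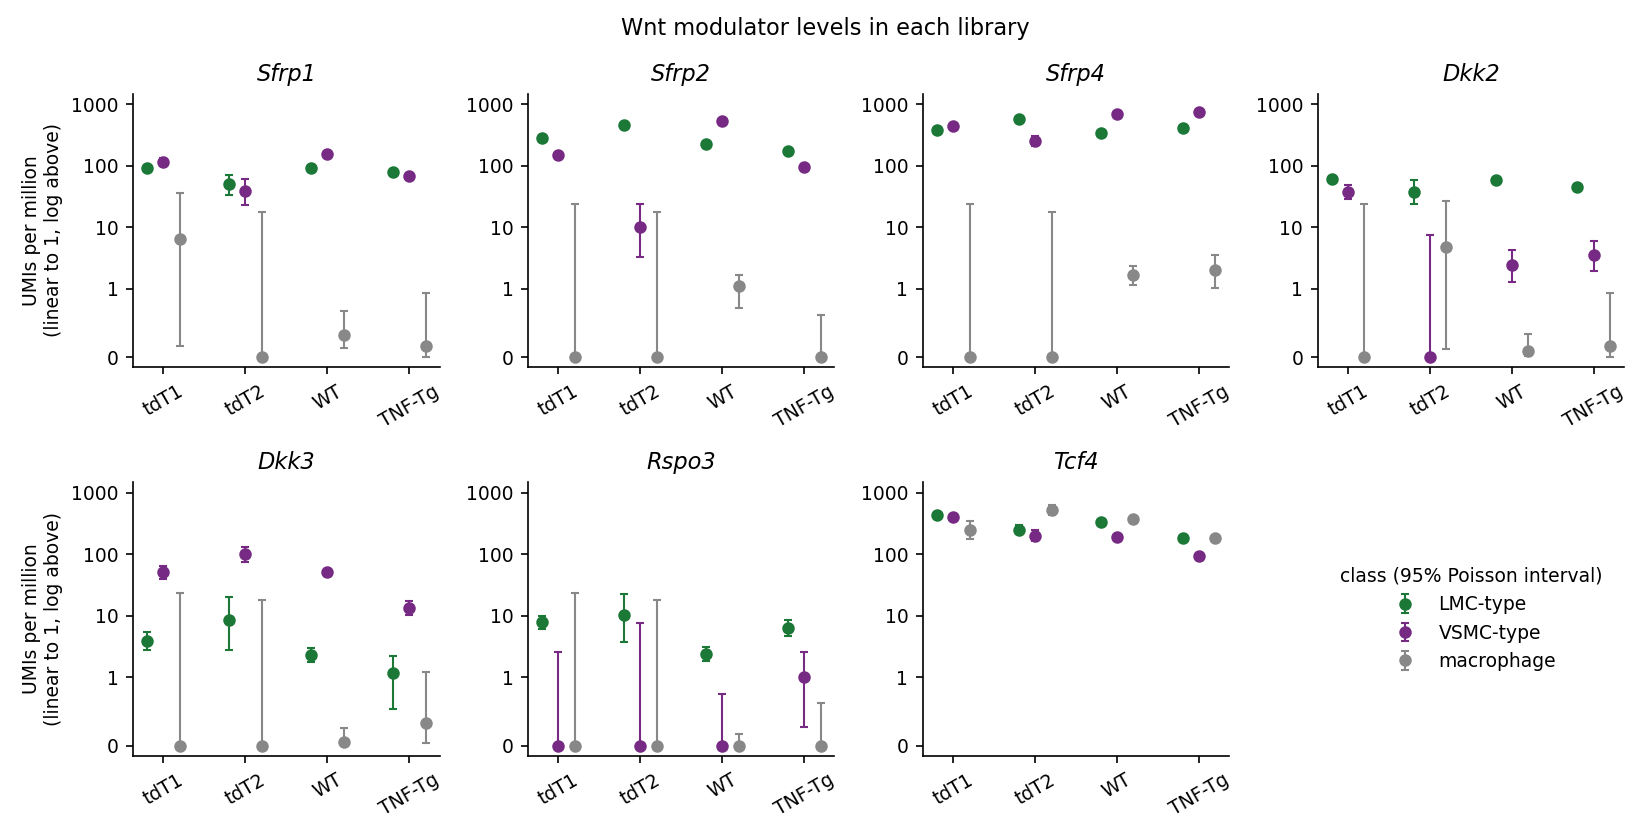
Level in CPM of the 7 measured genes (vertical axis, linear up to 1 and logarithmic above) in LMC-type, VSMC-type and macrophage cells of each library, with exact Poisson intervals at 95% that cover counting error only. Dkk3 sat higher in the VSMC-type in all 4 libraries, and Dkk2 and Rspo3 higher in the LMC-type. Tcf4 was at least as high in macrophages as in both stromal types in tdT2, WT and TNF-Tg, and lower than in both in tdT1.

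Sfrp5 and Frzb, both decoy receptors of the Frizzled-related family, were hardly detected. Sfrp5 (ENSMUSG00000018822, GRCm38 chr19:42197971-42202252, minus strand) had 0 UMIs in LMC-type and VSMC-type cells of every library, and the depth of the WT LMC-type allows at most 0.121 CPM for a count of 0. Its 1 UMI in the series lay in an unclassed TNF-Tg cell. Frzb (ENSMUSG00000027004, chr2:80411970-80447625, minus strand) had 4, 1, 3 and 0 UMIs in all cells of tdT1, tdT2, WT and TNF-Tg. Of these 8 UMIs, 3, 1 and 3 were in VSMC-type cells of tdT1, tdT2 and WT. Neither gene was tested between types or conditions.

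The question of the type comparison was which of these genes separate LMC-type from VSMC-type stroma. UMIs were summed over the cells of a type in each library, and the 8 sums were tested by edgeR's quasi-likelihood test with the library as a block, with Benjamini-Hochberg adjustment over all genes tested and a threshold of 0.01. Dkk2 and Rspo3 were higher in the LMC-type and Dkk3 was higher in the VSMC-type, while Sfrp1, Sfrp2, Sfrp4 and Tcf4 did not pass. Of the 7 genes tested, 2 passed towards the LMC-type against 6.06% of the 10713 genes tested outside the panels, and 1 passed towards the VSMC-type against 7.22%. The median log2 of the 7 was 0.47 and that of all genes −0.02. Since the gate was set on other genes of these cells, a p-value here says how steadily a gene follows the gate over 4 libraries.

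Dkk3 (ENSMUSG00000030772, chr7:112116017-112159057, minus strand) showed the clearest separation of the 9. In VSMC-type cells it measured 50.7, 100.02, 51.2 and 13.6 CPM, in the order tdT1, tdT2, WT and TNF-Tg. LMC-type cells of the same libraries had 3.91, 8.65, 2.29 and 1.18 CPM. The lowest VSMC-type value exceeded the highest LMC-type value, and the share of all genes with such a separation was not counted. Within libraries the VSMC-type was 13.0-, 11.6-, 22.3- and 11.5-fold higher. The edgeR estimate was a log2 LMC-type over VSMC-type of −4.11 (SE 0.20, adjusted p = 1.34e-07, n = 4 libraries), and it passed under every alternative run, from −4.80 to −3.68.

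Seen by cell, Dkk3 was carried by a minority even in VSMC-type stroma. With each cell thinned to 3000 UMIs, 15.4% of WT VSMC-type cells (exact binomial 95% interval 12.0 to 19.3) held a Dkk3 UMI. The shares were 1.07% of WT LMC-type cells and 0% of 1666 WT macrophages, with an upper limit of 0.221% by the same interval at this depth. Unthinned, the shares were 28.8%, 2.95% and 0.0583%, at median depths of 9925.5, 16075.5 and 12552 UMIs. In TNF-Tg the thinned shares were 5.14% of VSMC-type (3.02 to 8.10) and 0.366% of LMC-type cells, and 0.236% of macrophages. The TNF-Tg LMC-type share, from 2 cells, is at the level of the background.

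Dkk2 (ENSMUSG00000028031, chr3:132085292-132180304, plus strand), the Lrp5 and Lrp6 ligand, marked the LMC-type in 3 libraries strongly and in tdT1 weakly. LMC-type cells had 60.4, 38.1, 58.1 and 45.6 CPM in tdT1, tdT2, WT and TNF-Tg, a narrow range. VSMC-type cells had 37.7, 0, 2.45 and 3.52 CPM. The tdT1 VSMC-type value came from 55 UMIs in 10 of 148 cells and lies just under the lowest LMC-type value. The LMC-type was 1.60-fold higher in tdT1, 23.7-fold in WT and 13.0-fold in TNF-Tg. In tdT2, with 0 UMIs in the VSMC-type, it was at least 6.22-fold higher, taking 3 UMIs in that sum as the floor. The edgeR estimate was 2.62 (SE 0.50, adjusted p = 0.0025, n = 4 libraries).

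Without the tdT1 library the Dkk2 estimate rose to 4.11 (edgeR adjusted p = 5.44e-07), and it passed at 1.95 without WT (adjusted p = 0.00623). It missed the threshold without tdT2 (2.53, adjusted p = 0.0125) and without TNF-Tg (2.38, adjusted p = 0.0182). The sign was positive in all 13 alternatives. In thinned cells 11.1% of WT LMC-type cells (9.57 to 12.8) held a Dkk2 UMI, against 0.244% of WT VSMC-type cells and 0.06% of WT macrophages. The unthinned shares were 23.2%, 1.22% and 0.117%.

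The proximal promoters of Dkk2 and Sfrp2 are shown because these genes differ in how they follow the types: Dkk2 followed the LMC-type in all 4 libraries, and the direction of Sfrp2 turned in WT. RefSeq promoter windows of 300 bases (GRCm38.p6, 250 before the start and 50 after) were given for 4 of the 9 genes, of which these are the 2 measured in stroma. Capitals mark the motifs searched: TATAAA on the strand of the gene, and on both strands CTTTGA and CTTTGT (cores bound by TCF/LEF factors) and CAGGTG (an E-box bound by E-proteins). Both windows lie on the plus strand, Dkk2 at chr3:132085042-132085341 and Sfrp2 at chr3:83766071-83766370, and both are written 5′ to 3′.
Dkk2: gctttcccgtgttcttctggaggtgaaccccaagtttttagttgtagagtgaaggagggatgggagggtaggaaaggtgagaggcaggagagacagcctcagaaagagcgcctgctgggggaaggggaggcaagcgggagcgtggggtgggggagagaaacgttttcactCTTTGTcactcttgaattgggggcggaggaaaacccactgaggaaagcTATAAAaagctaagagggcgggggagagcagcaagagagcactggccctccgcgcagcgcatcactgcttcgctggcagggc
Sfrp2: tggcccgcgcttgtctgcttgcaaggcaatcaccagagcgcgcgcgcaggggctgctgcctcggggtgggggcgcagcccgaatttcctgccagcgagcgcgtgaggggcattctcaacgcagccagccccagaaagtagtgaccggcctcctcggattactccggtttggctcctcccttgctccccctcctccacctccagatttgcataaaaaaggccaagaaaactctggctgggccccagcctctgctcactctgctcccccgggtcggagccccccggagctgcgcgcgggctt
The Dkk2 window held a TATAAA 32 bases before the start and a CTTTGT 80 bases before it. Among 32544 distinct windows of this length, 8.28% held TATAAA, 18.7% CTTTGT, 16.0% CTTTGA and 20.3% CAGGTG. The Sfrp2 window held none of these letters. These matches describe the sequence only.

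Rspo3 (ENSMUSG00000019880, chr10:29452416-29535867, minus strand), the Lgr ligand, was low and found almost only in the LMC-type. LMC-type cells had 7.83, 10.4, 2.37 and 6.42 CPM in tdT1, tdT2, WT and TNF-Tg, from 70, 6, 59 and 49 UMIs. VSMC-type cells had 0 UMIs in the first 3 of these libraries and 4 UMIs (1.00 CPM) in TNF-Tg. The measured values of the types did not overlap, and the share of all genes with such a separation was not counted. However, the VSMC-type sum of tdT2 could have held up to 6.12 CPM unseen, which is above the WT LMC-type value of 2.37. Against a floor of 3 UMIs per sum the LMC-type was at least 3.81-fold higher in tdT1, 1.70-fold in tdT2 and 3.88-fold in WT, and in TNF-Tg it was 6.40-fold higher. The edgeR estimate was 3.62 (SE 0.61, adjusted p = 0.00097, n = 4 libraries), a fitted value that depends on the handling of the zeros. Without TNF-Tg, and with a gate margin of 1, Rspo3 fell below the low-count filter and could not be tested.

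The 3 abundant Frizzled-related genes had no common direction between the types. Sfrp2 (ENSMUSG00000027996, chr3:83766321-83774316, plus strand) measured 288, 455, 226 and 175 CPM in the LMC-type of tdT1, tdT2, WT and TNF-Tg. In the VSMC-type it measured 149, 10.2, 537 and 94.9 CPM, a range that encloses the LMC-type values. The LMC-type was 1.92-, 44.6- and 1.84-fold higher in tdT1, tdT2 and TNF-Tg, and the VSMC-type was 2.38-fold higher in WT. The tdT2 VSMC-type value rests on 5 UMIs in 1 cell. The edgeR estimate of 0.73 (SE 0.58, adjusted p = 0.41) did not pass, and it ran from 0.06 without tdT2 to 1.54 without WT (adjusted p = 0.036).

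Sfrp4 (ENSMUSG00000021319, chr13:19623104-19632994, plus strand) was the most abundant of the Frizzled-related genes in each of the 8 sums. It measured 382, 567, 345 and 410 CPM in the LMC-type and 444, 255, 685 and 747 CPM in the VSMC-type of tdT1, tdT2, WT and TNF-Tg. The VSMC-type was higher in tdT1, WT and TNF-Tg by 1.16-, 1.99- and 1.82-fold, and the LMC-type was 2.22-fold higher in tdT2. The edgeR estimate was −0.40 (SE 0.29, adjusted p = 0.36).

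Sfrp1 (ENSMUSG00000031548, chr8:23411502-23449632, plus strand) measured 92.7, 50.2, 92.2 and 80.1 CPM in the LMC-type of tdT1, tdT2, WT and TNF-Tg. The VSMC-type had 115, 38.8, 155 and 68.3 CPM. It was higher in the VSMC-type in tdT1 and WT and in the LMC-type in tdT2 and TNF-Tg, by 1.17- to 1.68-fold, and the interval of the tdT2 ratio included no difference. The edgeR estimate was −0.34 (SE 0.17, adjusted p = 0.18).

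**Figure D2:**
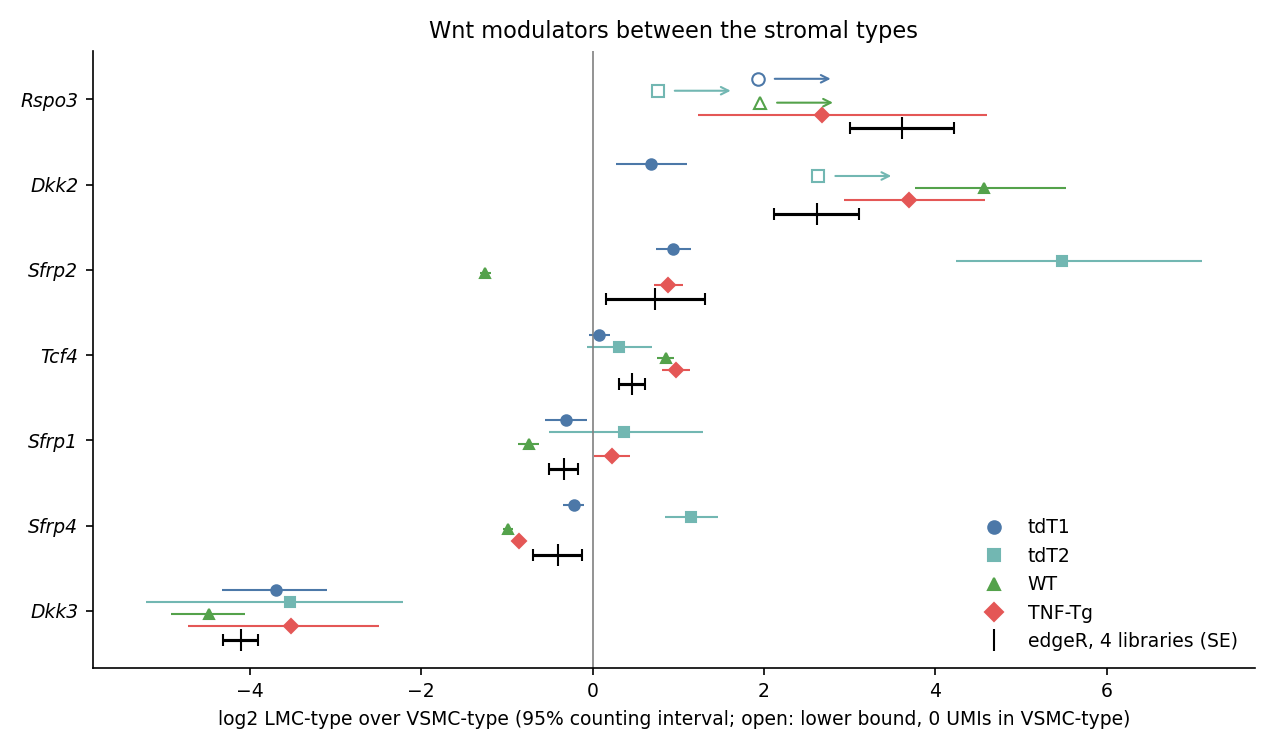
Log2 of LMC-type over VSMC-type level (horizontal axis) for each gene and library with exact conditional binomial intervals at 95%, and the edgeR estimate over 4 libraries with its SE in black. Open symbols with arrows are lower bounds where the VSMC-type had 0 UMIs. Dkk3 lies left of 0 in every library, Dkk2 and Rspo3 right of it, and Sfrp2 is at −1.25 in WT and between 0.88 and 5.48 elsewhere.

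Tcf4, the E-protein, was broadly expressed in stroma and macrophages alike. It measured 434, 251, 341 and 184 CPM in the LMC-type and 411, 202, 189 and 93.9 CPM in the VSMC-type of tdT1, tdT2, WT and TNF-Tg. The LMC-type was higher in 4 of 4 libraries, by 1.06-, 1.24-, 1.81- and 1.96-fold, and the intervals in tdT1 and tdT2 included no difference. The edgeR estimate was 0.47 (SE 0.15, adjusted p = 0.045), which missed the threshold of 0.01. It passed without tdT1 (0.66, adjusted p = 0.0095) and without the low-count filter (0.51, adjusted p = 0.0036).

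Macrophages had 250, 528, 381 and 187 CPM of Tcf4 in tdT1, tdT2, WT and TNF-Tg, so for this gene they are no background. In WT, 64.6% of thinned macrophages (62.2 to 66.9) and 59.9% of LMC-type cells (57.4 to 62.4) held a Tcf4 UMI, against 41.1% of VSMC-type cells (36.3 to 46.0). Unthinned, these shares were 91.9%, 93.6% and 67.8%. The other measured genes were near 0 in WT and TNF-Tg macrophages, between 0 and 2.01 CPM. In WT, Sfrp4 was at 1.66 and Sfrp2 at 1.11 CPM in macrophages, and 0.54% and 0.24% of thinned macrophages held them, against 45.0% and 24.7% of LMC-type cells. The macrophages of tdT1 and tdT2 were 15 and 55 cells, in which 1 UMI is worth 6.41 and 4.80 CPM.

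Tcf4 was found in most WT LMC-type cells and Sfrp2 in a minority. At 3000 UMIs per cell, 40.1% of WT LMC-type cells lacked a Tcf4 UMI, and the 10% of cells with most Tcf4 held 34.0% of its UMIs. For Sfrp2 in the same cells, 75.3% lacked a UMI and the top 10% held 70.2%. Sfrp4 was missing from 55.0% and had 52.4% of its UMIs in the top 10%. For Dkk2, 88.9% of them lacked a UMI and the top 10% held 94.2%. Both shares depend on the level of a gene: the thinned cells held 277 UMIs of Dkk2, 900 of Sfrp2, 1506 of Sfrp4 and 1552 of Tcf4, so only Sfrp4 and Tcf4 are at like levels here.

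Sfrp2 was found in fewer VSMC-type cells in tdT1, tdT2 and TNF-Tg than in WT. It was missing from 91.4% of thinned VSMC-type cells in tdT1 and 91.2% in TNF-Tg, against 74.1% in WT, and in tdT2 1.41% of thinned VSMC-type cells (1 of 71) held it against 25.3% of LMC-type cells. In LMC-type cells of tdT1, TNF-Tg and WT the corresponding shares were 69.5%, 75.3% and 75.3%, close to each other. Before thinning, 10.1%, 12.7% and 29.4% of VSMC-type cells of tdT1, TNF-Tg and WT held Sfrp2, at medians of 9751.5, 9456 and 9925.5 UMIs per cell.

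**Figure D3:**
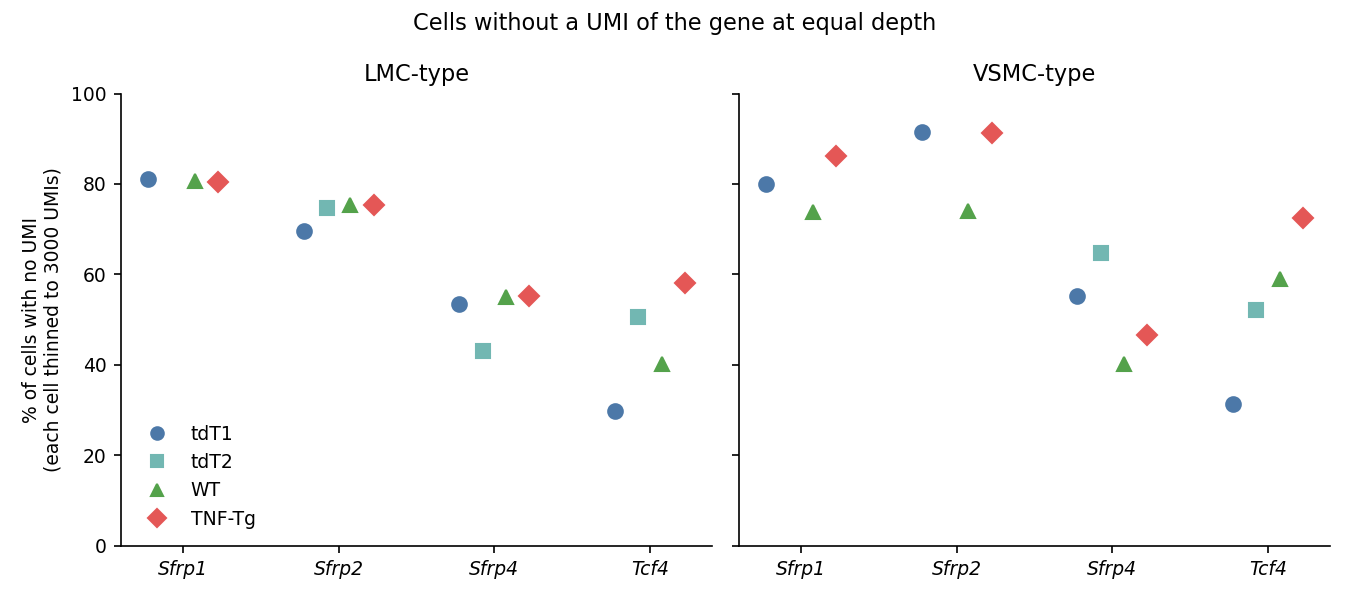
Share of cells without a UMI of the gene (vertical axis, percent) after each cell was thinned to 3000 UMIs, for 4 genes in LMC-type and VSMC-type cells of each library; sums under 50 UMIs are not drawn. Sfrp2 was missing from 69.5% to 75.3% of LMC-type cells, and in the VSMC-type from 74.1% of WT and 91.2% of TNF-Tg cells.

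Cells rich in 1 of the genes were also compared with the rest of their type in tdT1, WT and TNF-Tg, as a description in which cells of a library are not replicates. In the 10% of LMC-type cells with most Sfrp4 per UMI, Dkk2 was at 225, 159 and 146 CPM in tdT1, WT and TNF-Tg, against 43.9, 46.5 and 35.2 CPM in the other LMC-type cells. Sfrp1 was at 198, 146 and 107 CPM in those cells against 82.2, 86.0 and 77.3. Outside the LMC-type Dkk2 had no common direction with Sfrp4, and its counts were low. In the VSMC-type the cells with most Sfrp4 had 0 CPM of Dkk2 in tdT1, WT and TNF-Tg, against 43.5, 2.75 and 3.94 in the rest. The rest held 55, 12 and 14 Dkk2 UMIs, and the 55 of tdT1 lay in 10 of its 148 VSMC-type cells. The 0 therefore tells little in any of these libraries. In intermediate stroma such cells had 17.1, 0 and 16.9 CPM of Dkk2, from 3, 0 and 5 UMIs, against 10.8, 37.8 and 29.6. Dkk2 was thus higher there in tdT1 and lower in WT and TNF-Tg. In the VSMC-type the 10% of cells with most Sfrp2 had 905, 922 and 1211 CPM of Sfrp4, against 395, 655 and 686. Dkk3 had no common direction there: the cells with most Sfrp2 had 42.7 and 41.6 CPM in tdT1 and WT against 51.6 and 52.4 in the rest, but 28.2 against 11.6 in TNF-Tg, from 6, 23 and 13 UMIs.

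The genes leading the 10% of cells with most Sfrp2 were looked up among cells of at least 3000 UMIs, after the Sfrp2 values had been seen. In WT VSMC-type cells Angptl7, a secreted angiopoietin-like protein, led with 104 CPM in the 41 top cells against 0.236 CPM in the other 368. Angptl7 had 0 UMIs in VSMC-type cells of this depth in TNF-Tg and tdT1. Pi16 and Myoc, which are markers of the LMC-type panel, were also higher in the WT top cells, at 966 against 268 CPM and 353 against 106 CPM. In tdT1 Myoc was lower in the top VSMC-type cells, at 7.05 against 105 CPM, and in TNF-Tg it was at 50.5 against 15.3 CPM. Pi16 was higher in the top VSMC-type cells there too, at 339 against 194 CPM in tdT1 and 387 against 148 CPM in TNF-Tg. In the LMC-type, Gpc3, a cell-surface glypican, was higher in the Sfrp2 top 10% of tdT1, WT and TNF-Tg, at 138, 135 and 43.1 CPM against 71.9, 15.4 and 19.2.

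The gene Gm26771 (ENSMUSG00000097250, chr3:83773853-83789956, minus strand), annotated as antisense, was higher in the Sfrp2 top 10% of both types in tdT1, WT and TNF-Tg. In the LMC-type it had 79.3, 80.7 and 68.0 CPM in the top 10% against 5.80, 8.25 and 3.71 CPM. In the VSMC-type it had 21.2, 102 and 14.4 CPM against 0, 4.48 and 0.289 CPM. All VSMC-type cells held only 3 Gm26771 UMIs in tdT1 and 7 in TNF-Tg, so the differences there rest on few counts. Gm26771 overlaps the 3′ end of Sfrp2 by 464 bases. Of the 221 WT LMC-type cells with a Gm26771 UMI, 209 also held Sfrp2. The sources used here do not state how strand was treated in counting, so UMIs of Sfrp2 and Gm26771 may not be fully told apart. Gm26771 was at 16.3 CPM in WT LMC-type cells, far below Sfrp2.

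The genes whose pattern over the 8 sums was most like that of a member could be sought for Sfrp4 and Tcf4, which had at least 20 UMIs in every sum. Likeness was Pearson's r of log2(CPM + 1) over 8 sums that share 4 libraries, among 5578 genes. Sfrp4 was closest to Zfpl1 (r = 0.91) and Emilin1 (r = 0.91). Tcf4 was closest to Zbtb20 and Rsf1 (both r = 0.99). These values are a description of 8 points that share library and depth.

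The other genes were read from a list of 85 Wnt pathway genes and E-protein genes, the latter being 6 E-proteins and partners of Tcf4, and 51 passed the filter on low counts. Between the types, 6 of the 51 were higher in the LMC-type, 10 were higher in the VSMC-type and 35 did not pass, where 6.06% and 7.22% of all genes tested were called. The median log2 over the 51 was 0.05, against −0.02 over all genes. In the edgeR test over 4 libraries, the calls fell in ligands, receptors, the R-spondin arm, antagonists, targets and Id partners. None of the 9 cytoplasmic genes, such as the beta-catenin gene Ctnnb1 and Gsk3b, and neither of the 2 TCF/LEF factors tested passed, at an unadjusted p under 0.05 for 4 of these 11. DESeq2 was run for the members and the total count of calls only.

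Among ligands, Wnt10b was higher in the LMC-type by a log2 of 3.87 (SE 0.24, edgeR adjusted p = 3.47e-07), with 51.6, 64.0, 29.0 and 16.6 CPM in the LMC-type of tdT1, tdT2, WT and TNF-Tg and 1.51 to 2.06 CPM in the VSMC-type. Wnt11 was higher there by 1.14 (SE 0.15). These were 2 of the 6 ligands tested, out of 19. Among receptors, the Wnt5a-type co-receptors split: Ror2 was higher in the LMC-type by 2.40 (SE 0.31) and Ror1 in the VSMC-type, with a log2 of −2.48 (SE 0.28). Fzd10 was higher in the LMC-type (2.47, SE 0.58), with 3, 2, 1 and 0 UMIs in the VSMC-type of tdT1, tdT2, WT and TNF-Tg. The interval of its tdT1 ratio included no difference. Fzd1 (−1.43), Fzd2 (−0.79), Fzd4 (−0.96) and Lrp6 (−0.65) were higher in the VSMC-type.

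The R-spondins also divided between the types. Rspo1 was higher in the VSMC-type by a log2 LMC-type over VSMC-type of −2.65 (SE 0.21, edgeR adjusted p = 2.45e-06), at 26.1, 28.6, 26.1 and 24.9 CPM in tdT1, tdT2, WT and TNF-Tg against 5.26, 1.73, 5.27 and 3.15 CPM in the LMC-type. Rspo3 was higher in the LMC-type by this test and Rspo1 in the VSMC-type. The receptor Lgr4 was higher in the LMC-type by 1.26 (SE 0.21). Apcdd1, a membrane-bound Wnt inhibitor, was higher in the LMC-type by 1.59 (SE 0.26).

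Of the Wnt target list, Nkd1 (−2.05, SE 0.22), a feedback inhibitor, and Ccn5 (−1.43, SE 0.15; listed as Wisp2 in tdT1) were higher in the VSMC-type, and the other 4 tested did not pass. Id2 (−1.23, SE 0.17) and Id4 (−3.07, SE 0.26), which encode helix-loop-helix proteins that bind E-proteins and block DNA binding, were also higher in the VSMC-type. Id4 measured 83.6, 73.5, 49.6 and 36.7 CPM in the VSMC-type and 20.9, 6.92, 3.70 and 4.06 CPM in the LMC-type of tdT1, tdT2, WT and TNF-Tg. Tcf7l2, named here because it shares the nickname of Tcf4, did not pass (0.28, SE 0.13, adjusted p = 0.14).

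**Figure D4:**
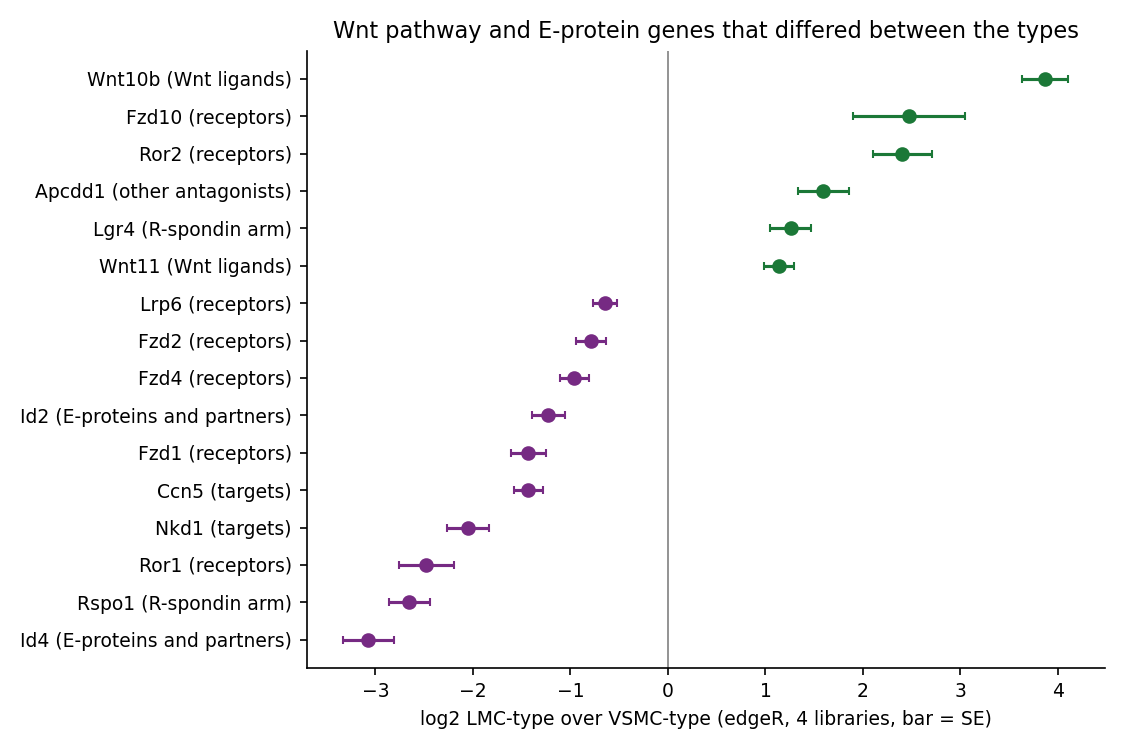
The 16 of 51 tested genes of the Wnt pathway and E-protein list that differed between the types, with log2 LMC-type over VSMC-type (horizontal axis) and its SE from edgeR over 4 libraries. The 6 genes right of 0 were higher in the LMC-type, led by Wnt10b at 3.87, and the 10 left of 0 in the VSMC-type, led by Id4 at −3.07.

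The second question was how the genes differ between TNF-Tg and WT vessels, taken within a class. With 1 library per condition there is no test, and the ratio of CPM is given with an exact conditional binomial interval at 95% that covers counting error only. A gene counted as different at 2-fold or more, among genes with at least 10 CPM in either library. In the VSMC-type, 4 of the 5 members with that level were at least 2-fold lower in TNF-Tg (Sfrp1, Sfrp2, Dkk3 and Tcf4), and in the LMC-type none of 5 passed 2-fold. In the VSMC-type 9.85% of all genes were 2-fold lower and 3.44% 2-fold higher, and in the LMC-type 3.14% and 2.87%. In intermediate stroma 2 of 5 members (Sfrp2 and Tcf4) were 2-fold lower, against 9.6% of all genes lower and 4.74% higher. Against the other 3 libraries together, the intermediate log2 of Sfrp2 was −0.47 (SE 1.12), under 2-fold. In macrophages the 1 member at this level, Tcf4, was 2-fold lower, against 4.93% lower and 4.42% higher.

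The VSMC-type sums differed in scale between these libraries. The median log2 TNF-Tg over WT of all genes at 10 CPM was −0.15 in the VSMC-type, −0.12 in intermediate stroma, −0.03 in the LMC-type and 0.02 in macrophages. With TMM scaling the VSMC-type counts were 447 genes higher and 517 lower, in place of 272 and 779. The members' median was −1.18 in the VSMC-type and −0.35 in the LMC-type.

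Sfrp2 had the largest ratio of the members with at least 10 CPM. In the VSMC-type it was at 537 CPM in WT and 94.9 in TNF-Tg, a log2 of −2.50 (−2.66 to −2.35) or 5.66-fold lower. In intermediate stroma it was 2.77-fold lower, at 329 and 119 CPM. In the LMC-type it was 1.29-fold lower, at 226 and 175 CPM, and the log2 change in the VSMC-type was larger by −2.13 (−2.31 to −1.95, counting error only). The WT value was the highest of the 4 VSMC-type sums, and TNF-Tg lay between tdT2 (10.2) and tdT1 (149). Against the other 3 libraries together the VSMC-type log2 was −1.14 (SE 1.46), and in thinned cells of WT and TNF-Tg it was −1.97. In the LMC-type TNF-Tg lay below the other 3 libraries, as did 30.1% of all genes there, but as a mean over cells the LMC-type log2 ratio was 0.00 and in thinned cells −0.05.

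Sfrp1 showed a smaller difference in the same classes. It was 2.26-fold lower in TNF-Tg VSMC-type cells (155 to 68.3 CPM; log2 −1.18, −1.38 to −0.98), 1.78-fold lower in intermediate stroma and 1.15-fold lower in the LMC-type. The change in the VSMC-type differed from that in the LMC-type by −0.98 (−1.22 to −0.73, counting error only). TNF-Tg again lay within the range of the other 3 libraries. The VSMC-type log2 ratio was under 2-fold with 3-gene panels (−0.92) and against the other 3 libraries together (−0.44, SE 0.68).

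Sfrp4 was not lower in TNF-Tg in these sums. Its TNF-Tg over WT ratio was 1.19-fold in the LMC-type (345 to 410 CPM), 1.09-fold in the VSMC-type (685 to 747 CPM) and 1.88-fold in intermediate stroma (450 to 844 CPM). TNF-Tg lay above the other 3 libraries in intermediate stroma, as did 27.7% of all genes, and in the VSMC-type, as did 26.4%. In the LMC-type it was within their range, where 30.6% of all genes were above. The VSMC-type log2 ratio was −0.04 at a gate margin of 1 and 0.89 (SE 0.58) against the other 3 libraries together. The intermediate ratio passed 2-fold with TMM scaling (log2 1.01) and against the other 3 libraries together (1.22, SE 0.67).

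**Figure D5:**
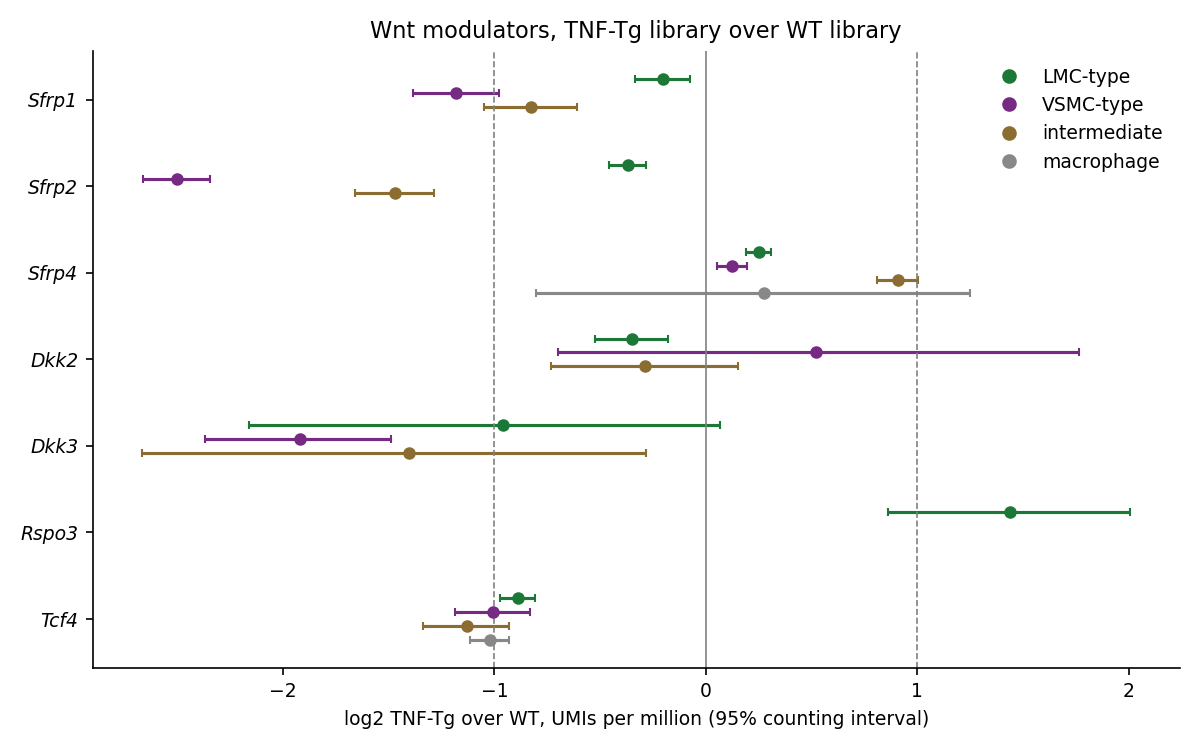
Log2 of TNF-Tg over WT level in CPM (horizontal axis) for each gene in 4 classes, with exact conditional binomial intervals at 95% that cover counting error only; dashed lines mark 2-fold, and ratios with under 4 UMIs in either library are not drawn. Tcf4 lies between −1.13 and −0.89 in all 4 classes, while Sfrp2 runs from −2.50 in the VSMC-type to −0.37 in the LMC-type.

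Dkk3 was 3.78-fold lower in TNF-Tg VSMC-type cells, at 13.6 CPM (54 UMIs) against 51.2 CPM (251 UMIs), a log2 of −1.92 (−2.37 to −1.49). The 3 libraries without the TNF transgene gave 50.7 to 100.02 CPM, so TNF-Tg lay below all of them, as did 39.4% of all genes in the VSMC-type. In the LMC-type Dkk3 was at 1.18 against 2.29 CPM and the interval of the ratio included no difference. Within TNF-Tg, Dkk3 was still 11.5-fold higher in the VSMC-type than in the LMC-type.

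Dkk2 was 1.27-fold lower in the TNF-Tg LMC-type (58.1 to 45.6 CPM; log2 −0.35, −0.52 to −0.18), within the range of the other libraries. In the VSMC-type it rested on 12 and 14 UMIs. Rspo3 was 2.71-fold higher in the TNF-Tg LMC-type (2.37 to 6.42 CPM; log2 1.44, 0.86 to 2.01), under the level of 10 CPM set for calls. The tdT1 and tdT2 values of 7.83 and 10.4 CPM were higher than that of TNF-Tg, so WT was the low library for this gene.

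Tcf4 was lower in TNF-Tg in each of the 4 classes by a similar factor. It was 1.85-fold lower in the LMC-type (341 to 184 CPM), 2.01-fold in the VSMC-type (189 to 93.9 CPM), 2.19-fold in intermediate stroma (230 to 105 CPM) and 2.03-fold in macrophages (381 to 187 CPM). TNF-Tg lay below the other 3 libraries in all 4 classes, as did 24.6% to 39.4% of all genes by class. In macrophages 28.9% of genes were above the other 3 libraries. The changes in the VSMC-type and LMC-type differed by −0.12 (−0.31 to 0.08), an interval that includes no difference. In the VSMC-type the ratio was under 2-fold with TMM scaling (log2 −0.86), as a mean over cells (−0.81) and in thinned cells (−0.55), and in intermediate stroma with 3-gene panels (−0.92). In thinned cells a UMI was found in 59.9% of WT and 41.9% of TNF-Tg LMC-type cells. Unclassed cells, which were not used in the comparisons, did not have less Tcf4 in TNF-Tg (75.9 CPM) than in WT (69.4 CPM). However, they made up 27.1% of cells in WT and 53.2% in TNF-Tg, at medians of 6105 and 9746 UMIs per cell. The study reports a larger share of inflammatory monocytes and a smaller share of M2-macrophages in TNF-Tg. Whether unclassed cells or macrophages were like mixtures in both libraries was not tested.

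A fit of TNF-Tg against the other 3 libraries within a class was added after the data had been seen. Its spread was taken from those 3 libraries, which differ in mouse line, sort, sequencer and counting. By edgeR, no member passed an adjusted p of 0.01, and 2 of 12344, 0 of 10992, 4 of 10487 and 7 of 10799 genes passed in the LMC-type, VSMC-type, intermediate and macrophage sums (0.0162%, 0%, 0.0381% and 0.0648%). At an unadjusted p under 0.05 these were 7.13%, 10.8%, 12% and 6.67%. In the VSMC-type, where 0 passed, 1191 genes were at an unadjusted p under 0.05; DESeq2 was not run for this fit. The lowest p of a member was that of Dkk3 in the VSMC-type (log2 −2.04, SE 0.55, unadjusted p = 0.0061, adjusted p = 0.46).

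Marker lists of other cells also differed between the WT and TNF-Tg sums. In the LMC-type, the summed macrophage list of 6 genes was at 418 CPM in WT and 89.7 in TNF-Tg, the 4 neutrophil genes at 326 and 13.0, and the 4 red cell genes at 9.98 and 569. In the VSMC-type the macrophage list was at 453 and 230 CPM, the neutrophil list at 184 in WT and 185 in TNF-Tg, and the red cell list at 11.4 and 11.3. In macrophages themselves the macrophage list was at 22844 and 18071 CPM. The list of tendon and joint-lining genes was at 232 and 893 CPM in the LMC-type and 185 and 621 in the VSMC-type. Prg4 alone gave 193 and 883 CPM of this in the LMC-type and 179 and 617 in the VSMC-type. The study reports Prg4 as a gene higher in TNF-Tg in both its LMC and its VSMC cluster. Scx, a defining tendon gene of that list, was at 0 in both TNF-Tg types and in the WT VSMC-type, but not in the WT LMC-type. Of the 5 genes, 2 reached 10 CPM in the LMC-type of WT and of TNF-Tg, and 1, Prg4, in the VSMC-type. The lists for endothelial, Schwann cell and adipocyte genes lay at or below 18.0 CPM in both types of WT and TNF-Tg. The pericyte list was at 46.4 and 35.0 CPM in the LMC-type of WT and TNF-Tg, and at 141 and 98.9 in the VSMC-type. In each of these 4 sums 2 of its 5 genes reached 10 CPM. The highest was Abcc9, or Kcnj8 in the TNF-Tg VSMC-type, while Rgs5 was at 0 in 3 of the 4 sums. The gate panels differed as well. In the VSMC-type the panel of that type was at 5846 CPM in WT and 6135 in TNF-Tg, of which Cxcl14 alone gave 1591 and 4073. In the LMC-type the LMC-type panel was at 7237 and 4993 CPM. The gate read these genes, and whether it took like cells in WT and TNF-Tg was not tested. The part of all these differences in the ratios of Sfrp1, Sfrp2, Dkk3 and Tcf4 was not tested.

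Across the same list, 3 of 35 genes with at least 10 CPM were 2-fold lower in the TNF-Tg LMC-type, 4 of 38 in the VSMC-type and 3 of 39 in intermediate stroma, and none was 2-fold higher in these classes. The shares of all genes that were 2-fold lower were 3.14%, 9.85% and 9.6%, so the counts in the VSMC-type and intermediate stroma are near the background. The median log2 over the list was −0.30, −0.36 and −0.22. The ligand Wnt2 was 2.57-fold lower in intermediate stroma and 3.46-fold lower in the LMC-type (92.1 to 26.6 CPM; log2 −1.79, −2.01 to −1.58), against 70.0 and 126 CPM in tdT1 and tdT2. In the VSMC-type, Rspo2 (13.1 to 2.76 CPM), the receptor Fzd7 (19.4 to 7.78 CPM) and the feedback inhibitor Nkd2 (10.8 to 4.77 CPM) were 2.27- to 4.73-fold lower. Ccn5 was 2.68-fold lower in the LMC-type and 2.65-fold lower in the VSMC-type. Of the E-protein group, Id1 was 2.85-fold lower in the LMC-type and Id1 and Tcf12 were 2.41- and 2.28-fold lower in intermediate stroma. Id1 in the LMC-type was at 19.8 CPM in WT and 6.95 in TNF-Tg, and at 56.0 and 3.46 in tdT1 and tdT2. Rspo2, Fzd7 and Nkd2 in the VSMC-type and Id1 in the LMC-type reached 10 CPM in WT and not in TNF-Tg.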

How the data were processed

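Vessels of 3 mice per library were digested and sorted by the authors, and 3′ UMI libraries were counted with Cell Ranger (3.1.0 for tdT1 and 6.0.1 for tdT2, WT and TNF-Tg, per the file headers). The deposited values are raw UMI counts per gene and cell for barcodes called as cells, not normalized. The submitters' processing notes name mm10 and the annotation release is not given in the sources used here. Gene positions are from GENCODE M21 (GRCm38).

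From the counts, cells were gated on panel scores and UMIs were summed per class and library. Macrophages scored at least 1 higher for leukocyte than stromal genes and at least 1.5 for their panel. Types were compared with edgeR 4.0.16 (TMM, filterByExpr) on 8 sums with the library as a block, since both types of a library come from the same mice, and with DESeq2 1.42.0 as an alternative. TNF-Tg and WT have 1 library each, so no p-value is given for that ratio. Intervals at 95% and floors of 3 UMIs cover counting error only. Predicted doublets (Scrublet in scanpy 1.11.5: 4, 0, 137 and 51 cells in tdT1, tdT2, WT and TNF-Tg) were kept in the main values and left out in an alternative. Cells within 0.1 of a type cut numbered 73, 24, 116 and 81. The edgeR script was tested on simulated data. Python 3.11.15, numpy 2.4.6, pandas 2.3.3, scipy 1.17.1 and matplotlib 3.10.9 were used, with a seed of 42.

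All 9 members are named. Pathway genes are named at an edgeR adjusted p under 0.01 between types or at 2-fold between TNF-Tg and WT with at least 10 CPM. The members, gene lists and gate panels were chosen with earlier results of these data known, and the type panels come from the study's cluster lists. The study states separate days for its sequencing experiments. With the library as a block, a shift in level shared by both types of a library or day does not enter the p-values of the type comparison. Those p-values measure how the ratio between the types varied over these 4 libraries, days included.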

Additional observations from a re-analysis of the deposited data

Results flagged for a closer look

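Some members had UMIs in cells that no class took, at levels whose counting interval lay above that of the macrophages of the same library. In WT, the 1487 unclassed cells held Sfrp1 at 4.87 CPM, Sfrp2 at 3.32, Sfrp4 at 11.15, Dkk2 at 2.82 and Dkk3 at 2.40. In TNF-Tg, the 1805 unclassed cells held Sfrp2 at 2.02 CPM and Sfrp4 at 10.5. Each level was far below that of the stromal type with most of the gene. In WT, however, Dkk2 was near its VSMC-type level of 2.45 CPM and Dkk3 near its LMC-type level of 2.29 CPM. The unclassed cells were not used in any comparison.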

How the results depend on the processing

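Between the types 1423 genes outside the panels passed the edgeR threshold. The cause of the following shifts was not tested. Leaving out 1 library each gave 835 (without WT) to 1269 (without tdT1) and 925 without TNF-Tg, and removing the low-count filter gave 2236. Without the library block 273 passed, and Dkk2 (2.18, edgeR adjusted p = 0.19) and Rspo3 (3.82, adjusted p = 0.033) no longer did, while Dkk3 still passed (−4.23, adjusted p = 0.0033). Without the low-count filter Sfrp2 passed (0.77, adjusted p = 1.58e-05). The edgeR estimate of each tested member kept its sign in every alternative that could test it. By single library, Sfrp1, Sfrp2 and Sfrp4 did not keep 1 direction between the types. DESeq2 gave 1357 calls and the other alternatives 1175 to 1487.

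For TNF-Tg over WT, genes at least 2-fold higher numbered 272 in the VSMC-type, 447 with TMM and 436 in thinned cells, and those lower 779 and, with TMM, 517. In intermediate stroma the higher count of 383 became 614 as a mean over cells and 751 in thinned cells, and the lower count of 776 became 1196 in thinned cells. Sfrp2 (log2 −2.76 to −1.14) and Dkk3 (−2.28 to −1.37) stayed at least 2-fold lower in the VSMC-type under each of 8 alternatives and in the added fit against 3 libraries. The Sfrp2 value of −1.14 is from that fit, where the SE was larger than the estimate and TNF-Tg lay within the range of the 3 libraries. The 8 alternatives all use the same WT and TNF-Tg libraries. A gate margin of 0 left no intermediate class to compare. Replicate numbers of WT and TNF-Tg mark no shared mice, so no paired analysis was possible for that ratio because each condition has 1 library. Depth limits Rspo3, Frzb, Sfrp5 and the tdT2 and tdT1 macrophages.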

Other observations

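In macrophages, where the members other than Tcf4 were at or near 0 and Tcf4 was 2.03-fold lower in TNF-Tg, 2 of the 21 pathway genes with at least 10 CPM were 2-fold higher in TNF-Tg and none was 2-fold lower, against 4.42% and 4.93% of all genes. Id3, which encodes an inhibitor of E-proteins, was at 5.59 CPM in WT and 14.4 in TNF-Tg (log2 1.37, 0.95 to 1.78, counting error only). Myc, a growth-promoting transcription factor, was at 5.18 and 11.9 CPM (log2 1.20, 0.75 to 1.64). The Myc level of TNF-Tg was not above that of all other libraries. Both genes reached the level set for calls in TNF-Tg and not in WT. In tdT1 and tdT2 macrophages, 15 and 55 cells, Id3 was at 12.8 and 0 CPM. Stromal Id3 was far higher, at 518 to 939 CPM in the LMC-type and VSMC-type of WT and TNF-Tg.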
